A study of Mus musculus with 10 samples.

Results

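Slpi, Anxa3, Klk10 and Pdpn were examined in cultured mouse tongue epithelial cells. The study names these 4 genes among the markers of its tumor initiating cells, and their rows were taken by symbol from a deposited table of 18586 rows. All 4 symbols were present. The study chose the genes with RNA-seq of these cultures in hand, so the direction of their differences is not independent evidence. Levels are given in TPM, an abundance of transcripts corrected for transcript length and scaled within each library.

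Expression was measured in 10 libraries of poly(A) RNA. Both genotypes carried Krt14-CreERT, LSL-rtTA and tetON_H2B-GFP, so that transgenes were induced in Krt14-lineage basal cells and the induced cells were marked by nuclear GFP. EY cells also carried tetON_E6-E7 and tetON_YAP1S127A, and N cells carried neither. Per the labels, cells were taken from the tongue epithelium 15 days after induction, sorted for GFP and grown in culture, and the study's medium held doxycycline, EGF and cholera toxin. The 6 EY libraries were of 3 culture lines with 2 libraries each: EY3960 (EY replicates 1 and 4), EY4028 (EY replicates 2 and 5) and EY4174 (EY replicates 3 and 6). The 4 N libraries were all of 1 line, N4172. Genotype and line therefore cannot be told apart, and p-values measure only the spread between these libraries, not between animals.

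YAP is the transcriptional coactivator at the end of the Hippo pathway. Phosphorylation keeps it out of the nucleus. YAP1S127A lacks a phosphorylation site that holds it in the cytoplasm, and nuclear YAP acts mainly through TEAD factors on DNA. E6 and E7 are papillomavirus oncoproteins that inactivate p53 and the retinoblastoma protein. Of the 4 genes, Slpi encodes a secreted inhibitor of leukocyte serine proteases that is made by mucosal epithelia. Anxa3 encodes an annexin, a protein that binds phospholipid membranes in the presence of calcium. Klk10 encodes a secreted protein of the kallikrein family of serine proteases, which are produced by stratified epithelia as they differentiate. Pdpn encodes podoplanin, a mucin-like membrane glycoprotein known from lymphatic endothelium and from the invading edge of squamous carcinomas, and it is counted among partial EMT genes.

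The stretch from 250 bases before to 50 bases after the annotated start is shown for the 3 genes that matched by symbol in RefSeq (build GRCm38.p6). The study reported gained YAP binding at Pdpn in EY cells, and direct activation of Slpi, Anxa3 and Klk10 by YAP. Each is written 5′ to 3′ along the gene, and capitals would mark a motif match. Slpi lies at chr2:164356458-164356757 (minus strand), Klk10 at chr7:43780804-43781103 (plus strand) and Pdpn at chr4:143299515-143299814 (minus strand).
Slpi: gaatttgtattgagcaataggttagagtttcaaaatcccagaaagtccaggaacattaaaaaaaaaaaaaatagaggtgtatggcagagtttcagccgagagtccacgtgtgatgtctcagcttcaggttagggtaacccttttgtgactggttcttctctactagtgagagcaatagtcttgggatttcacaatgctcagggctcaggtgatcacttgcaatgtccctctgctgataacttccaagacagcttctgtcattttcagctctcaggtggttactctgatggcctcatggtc
Klk10: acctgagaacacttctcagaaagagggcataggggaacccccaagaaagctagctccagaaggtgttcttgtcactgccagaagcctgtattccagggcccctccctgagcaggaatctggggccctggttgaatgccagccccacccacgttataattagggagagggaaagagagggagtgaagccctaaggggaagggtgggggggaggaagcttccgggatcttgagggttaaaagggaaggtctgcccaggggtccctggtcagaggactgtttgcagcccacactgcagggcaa
Pdpn: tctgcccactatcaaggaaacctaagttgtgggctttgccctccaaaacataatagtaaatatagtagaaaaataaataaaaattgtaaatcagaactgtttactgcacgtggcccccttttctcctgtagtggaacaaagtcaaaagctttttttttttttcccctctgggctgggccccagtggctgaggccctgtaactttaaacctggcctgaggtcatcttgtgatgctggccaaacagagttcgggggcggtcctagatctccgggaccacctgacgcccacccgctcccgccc
Both strands were searched for the TEAD motif GGAATG, the AP-1 motif TGANTCA and the TATA box TATAAA. None of the 3 motifs was present in any of the 3 windows. Among all 32851 windows of this length, 14.7% held the TEAD motif, 7.81% the AP-1 motif and 13.6% the TATA box. GC content was 43.3% for Slpi, 57.3% for Klk10 and 48.7% for Pdpn, against a median of 52.7% over all windows. These windows bear on the letters next to the start only. Many of the YAP binding sites that the study mapped lay far from start sites, outside windows of this length.

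The level of Yap1 and the state of the libraries are given first. Yap1, the mouse gene for YAP, had 34.7 to 57.1 TPM in the EY libraries and 17.2 to 20.9 TPM in the N libraries. The YAP1S127A transgene is separate from this gene. All EY libraries lay above all N libraries, which held for 11.3% of the genes tested. The Yap1 difference was 1.17 on the log2(TPM + 1) scale (SE 0.14, adjusted p = 1.73e-04, limma). Whether reads of the YAP1S127A transgene count toward this row is not stated. Of 18 direct YAP targets tested, 2 were called higher in EY by the rule given with Slpi and none lower, beside 1.85% and 1.7% of all genes. They were Cyr61, with a difference of 2.35 (adjusted p = 1.90e-06), and Amotl2, with a difference of 1.44 (adjusted p = 4.66e-05, both limma). Basal keratinocyte markers summed to 4327 to 7281 TPM in EY and 5348 to 6070 TPM in N. Summed levels of fibroblast, lymphoid, endothelial and salivary gland marker lists were at most 1.29 TPM in any library. These sums rest on few genes, since many listed markers were not in the table. Present were 2 of 9 fibroblast, 3 of 8 lymphoid, 5 of 8 endothelial and 2 of 10 salivary gland markers. N replicate 4 stood apart from the other N libraries for several genes, and results that rest on it are given with and without it.

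Slpi had the largest difference of the 4 genes. In EY3960 its level was 721 and 668 TPM. In EY4028 it was 257 and 262 TPM, and in EY4174 it was 179 and 211 TPM. The 4 N libraries held 18.0, 21.5, 26.2 and 31.2 TPM. The lowest EY library was thus several times the highest N library, and the groups did not overlap. All EY libraries lay above all N libraries for 11.3% of the genes tested. Means were 383 ± 244 TPM for the EY libraries (SD, n = 6) and 24.2 ± 5.73 TPM for the N libraries (SD, n = 4), a ratio of 15.8. In bulk RNA, more cells with Slpi and more Slpi per cell cannot be told apart. The plot of levels by line shows these values for all 4 genes.

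**Figure D1:**
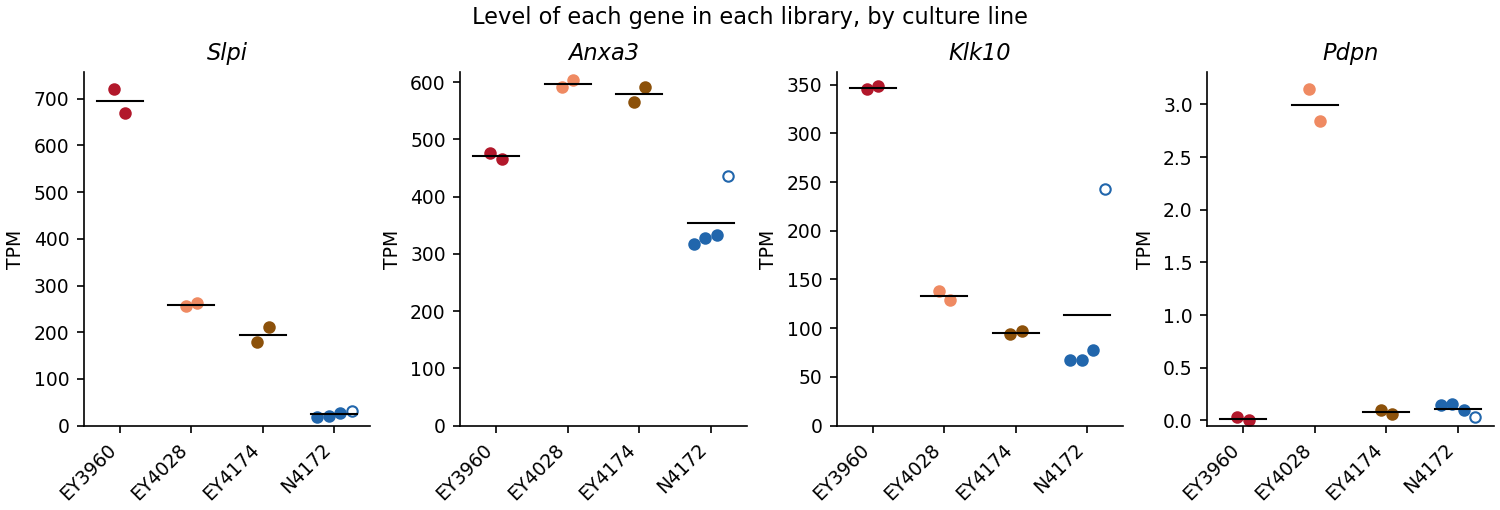
Level in TPM (vertical axes, linear, a separate scale for each gene) of Slpi, Anxa3, Klk10 and Pdpn in each library, by culture line (horizontal axes). Points are libraries, black bars are line means, and the open circle is N replicate 4. Slpi was above 170 TPM in every EY library and below 32 TPM in every N library, whereas Pdpn was above 1 TPM only in EY4028.

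Tested across 11630 genes, Slpi was higher in EY by 3.73 on the log2 scale (SE 0.43, 95% confidence interval 2.75 to 4.70, adjusted p = 4.19e-04, limma). A gene was called where the Benjamini-Hochberg adjusted p was under 0.01 and the log2 fold change was over 1 in size. By this rule 215 genes (1.85%) were called higher and 198 (1.7%) lower in EY, and Slpi ranked 12 of 11630 by fold change. The exact two-sided permutation test over libraries gave p = 0.00476, the smallest that 210 assignments allow. The call was lost when each line was reduced to its mean (3 EY lines against 1 N line, adjusted p = 0.417, limma).

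Slpi also differed among the EY lines. In a model of line means, EY3960 was above N by 4.81 on the log2 scale (adjusted p = 3.08e-08, limma). EY4028 followed at 3.39 (adjusted p = 6.06e-07, limma) and EY4174 at 2.98 (adjusted p = 1.85e-06, limma). Each line was called. In these comparisons, which share the N libraries, 3.96% of genes were called higher in EY3960, 3.56% in EY4028 and 2.01% in EY4174. As ratios of mean TPM to N the values were 28.7, 10.7 and 8.04. EY3960 exceeded EY4028 by 1.42 (SE 0.20, adjusted p = 0.00221) and EY4174 by 1.83 (SE 0.20, adjusted p = 2.01e-04). The neighbours EY4028 and EY4174 were not told apart (0.42, SE 0.20, adjusted p = 0.245). The F test among the EY lines called Slpi (adjusted p = 3.94e-04, limma), as it did 5.12% of all genes tested. The N libraries also entered the estimate of the spread in this F test.

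Slpi belongs to the whey acidic protein four-disulfide core (WFDC) family, and of 19 family symbols listed 5 were in the table. Besides Slpi only Wfdc2, which encodes a secreted epithelial protein of the same family, passed the filter on low values of at least 1 TPM in 4 libraries. Wfdc2 was not called between EY and N (0.43, SE 0.52, adjusted p = 0.590). Its line means were 1133 TPM in EY3960, 570 TPM in EY4028 and 217 TPM in EY4174, against 384 ± 22.4 TPM in N (SD, n = 4). Wfdc2 was called higher in EY3960 (1.56, adjusted p = 5.19e-07, limma), where 3.96% of genes were. Its difference in EY4174 was below 0 (-0.83, adjusted p = 9.43e-05, limma). Wfdc5 and Wfdc3 had means of under 1 TPM in both genotypes and were not tested with the filter. Wfdc5 was nevertheless at 2.23 and 2.15 TPM in EY3960 and 1.06 TPM in N replicate 4, and at most 0.603 TPM in the other libraries.

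Slpi protects progranulin, the product of Grn, from cleavage by neutrophil elastase. Grn was above N in all EY libraries, as were 11.3% of the genes tested. It was at 18.3 ± 2.31 TPM in EY (SD, n = 6) against 11.8 ± 2.40 TPM in N (SD, n = 4). The difference of 0.60 (SE 0.13, adjusted p = 0.00636, limma) stayed under the fold threshold. Of 8 listed proteases and substrates of Slpi, Grn was the only one to pass the filter. Cma1, a mast cell chymase, was the only other in the table, with means of 0.245 TPM in EY and 0.413 TPM in N. Markers of granulocytes and monocytes, cells that also make Slpi, summed to 156 and 162 TPM in EY3960, 51.4 to 66.5 TPM in the other EY libraries and 50.7 to 83.9 TPM in N. Of 17 such markers listed, 9 were in the table. Of 4 tested, S100a8 was called higher in EY with all libraries, and S100a9 in its place without N replicate 4, beside 1.85% and 2.01% of all genes. Both passed the filter mainly through EY, so a difference was built into their passing. Cd68, S100a8 and S100a9 made up most of the sum. Cd14 was at 4.32 to 11.4 TPM, Ly6g at 0 to 1.26 TPM, Cxcr2 at 0.343 to 1.14 TPM, Lcn2 at 0.0656 to 0.554 TPM, Ptprc at 0.0126 to 0.347 TPM and Csf3r at 0 to 0.122 TPM over the libraries. Cxcr2 was 0.709 to 1.14 TPM in EY and 0.343 to 0.879 TPM in N. The part of these cells in the Slpi differences was not tested.

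Anxa3 had the highest mean over all libraries of the 4 genes and a small spread for its level. It was at 477 and 466 TPM in EY3960, 591 and 603 TPM in EY4028, and 566 and 591 TPM in EY4174. The N libraries held 318, 328, 333 and 436 TPM. All EY libraries lay above all N libraries, as was the case for 11.3% of the genes tested. The nearest values were those of EY replicate 4 and N replicate 4.

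The mean of Anxa3 was 549 ± 61.5 TPM for the EY libraries (SD, n = 6) and 354 ± 55.4 TPM for the N libraries (SD, n = 4), a ratio of 1.55. The log2 difference was 0.64 (SE 0.11, 95% confidence interval 0.40 to 0.88, adjusted p = 0.00165, limma), so that Anxa3 passed the p threshold and missed the fold threshold. The exact two-sided permutation test gave p = 0.00476. Without N replicate 4 the difference was 0.74 (adjusted p = 4.61e-04, limma). With line as a random block the adjusted p was 0.0493, and over line means it was 0.320.

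By line, Anxa3 exceeded N by 0.43 (EY3960, adjusted p = 0.0170, limma), by 0.77 (EY4028, adjusted p = 6.34e-04, limma) and by 0.72 (EY4174, adjusted p = 0.00104, limma). No line was called. EY4028 and EY4174 differed by 0.05 (SE 0.13, adjusted p = 0.863, limma) and EY3960 lay below EY4028 by 0.34 (SE 0.13, adjusted p = 0.142, limma). The F test among the EY lines gave an adjusted p of 0.144 with all libraries, 0.00197 without N replicate 4 and 0.00855 with array weights (limma). The largest difference between lines stayed at 0.34 in each, under the fold threshold. The order of the lines for Anxa3 was not that for Slpi, since EY3960 had the highest Slpi and the lowest Anxa3 of the EY lines.

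**Figure D2:**
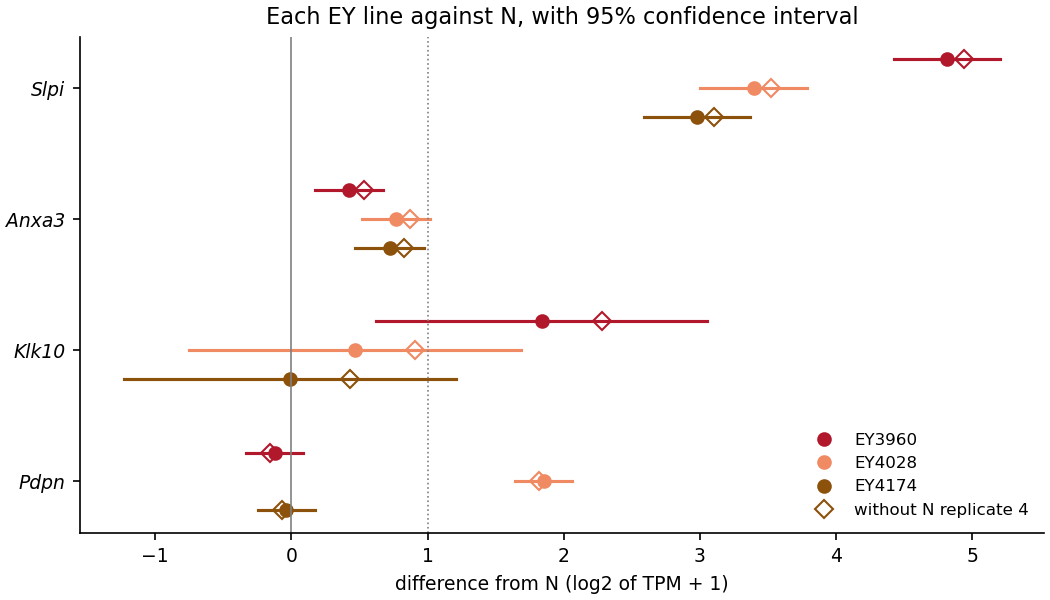
Difference of each EY line from N on log2(TPM + 1) (horizontal axis) for the 4 genes (vertical axis), from a model of line means. Filled circles with bars are estimates with 95% confidence intervals, open diamonds are estimates without N replicate 4, and the dotted line is the fold threshold of 1. The Slpi intervals lie above 2.5 in all 3 lines, and the Pdpn interval lies above 0 only in EY4028.

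Of the other 9 annexins tested, none was called in either direction between EY and N, with or without N replicate 4. Their median log2 difference was 0.36, beside 0.03 over all genes tested. Anxa11 was above N in all EY libraries (0.62, adjusted p = 0.00181, limma), with 23.4 to 26.7 TPM as line means against 15.8 TPM in N. Of all genes tested, 11.3% were above N in all EY libraries. Anxa1, a glucocorticoid-regulated annexin with roles in resolving inflammation, averaged 2080 TPM in EY and 957 TPM in N (1.03, SE 0.31, adjusted p = 0.0353, limma). It was called higher in EY3960 (1.64, adjusted p = 1.08e-05) and EY4028 (1.19, adjusted p = 1.31e-04, both limma), where 3.96% and 3.56% of genes were. It was not called in EY4174 (0.27). Anxa2 and Anxa5 had differences of 0.52 (adjusted p = 0.0158) and 0.50 (adjusted p = 0.0700, both limma). The forest plot of gene families shows the annexins, WFDC proteins and kallikreins together.

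S100a10, the S100 protein that forms a complex with annexin A2, had 1944 ± 216 TPM over the EY libraries (SD, n = 6), against 1391 ± 239 TPM over the N libraries (SD, n = 4), a difference of 0.49 (adjusted p = 0.00923, limma). S100a11, which binds annexin A1, differed by 0.27 (adjusted p = 0.140), and S100a6 differed by 0.13 (adjusted p = 0.408, both limma). None of these 3 partners was called. All 3 were highest among the N libraries in N replicate 4.

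**Figure D3:**
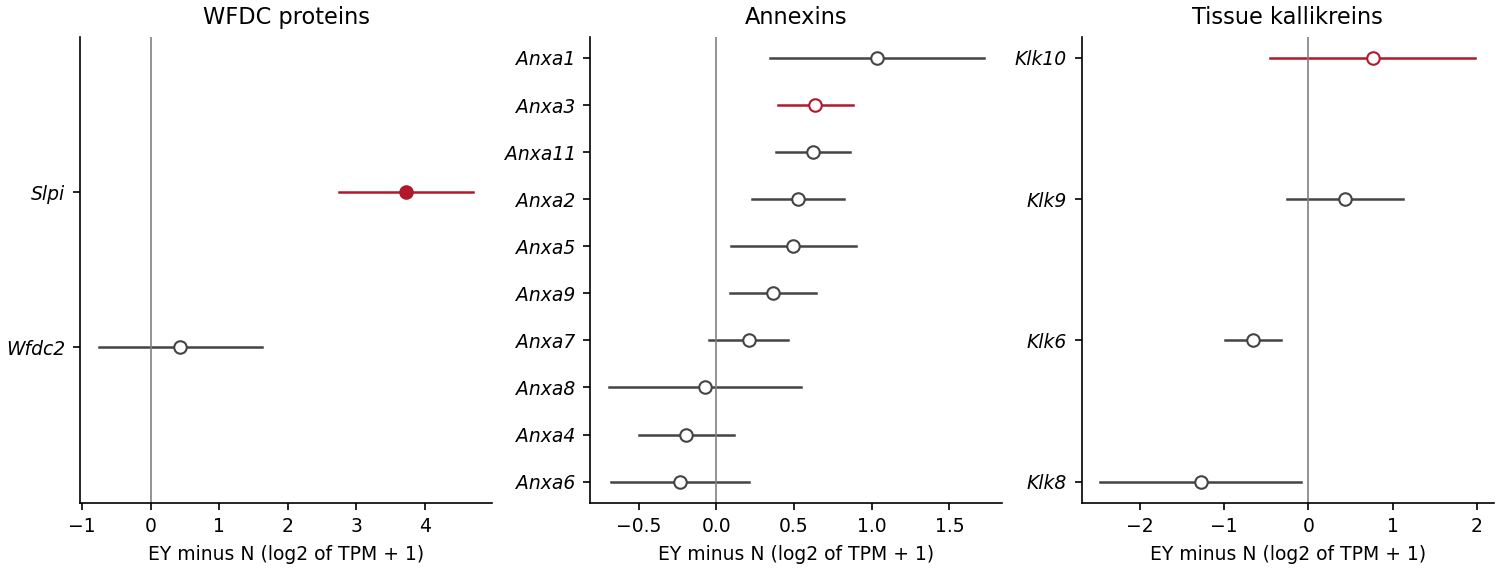
Difference between EY and N on log2(TPM + 1) (horizontal axes) with 95% confidence interval for each tested WFDC protein, annexin and tissue kallikrein (vertical axes). Filled circles are called genes and red marks Slpi, Anxa3 and Klk10; Slpi at 3.73 is the only filled circle, and Klk8 and Klk10 lie on opposite sides of 0.

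Klk10 was highest in EY3960 and overlapped between the genotypes. It was at 345 and 349 TPM in EY3960, 138 and 129 TPM in EY4028, and 94.4 and 96.9 TPM in EY4174. In N, 3 libraries held 67.2, 67.6 and 77.7 TPM and N replicate 4 held 243 TPM. The EY libraries all lay above the first 3 N libraries, and N replicate 4 lay above the EY4028 and EY4174 libraries.

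Means of Klk10 were 192 ± 121 TPM for the EY libraries (SD, n = 6) and 114 ± 86.2 TPM for the N libraries (SD, n = 4). The difference of 0.76 (SE 0.54, 95% confidence interval -0.45 to 1.98, adjusted p = 0.338, limma) did not pass, and the exact two-sided permutation test gave p = 0.214. Without N replicate 4 the N mean was 70.8 ± 5.99 TPM (SD, n = 3) and the difference 1.21 (SE 0.48, adjusted p = 0.106, limma), which did not pass either. Without line EY3960 the difference was 0.23.

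Line by line, the Klk10 difference from N was 1.84 for EY3960 (95% confidence interval 0.62 to 3.06, adjusted p = 0.0367, limma). It was 0.47 for EY4028 (adjusted p = 0.542, limma) and -0.01 for EY4174 (adjusted p = 0.990, limma), and none was called. Without N replicate 4 these became 2.28 (adjusted p = 2.87e-09), 0.91 (adjusted p = 5.21e-06) and 0.43 (adjusted p = 0.00108, all limma). Only EY3960 was then called, as 4.7% of genes were in that comparison. Among the EY lines the largest difference, EY3960 above EY4174, was 1.85, which the F test did not separate with all libraries (adjusted p = 0.128, limma). Without N replicate 4 the same difference passed (adjusted p = 1.17e-07, limma). The spread in this test includes that of the N libraries, so N replicate 4 bears on a comparison of EY lines.

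The summed level of suprabasal differentiation genes moved with Klk10 across the libraries. The listed genes of this kind, which include Krt13, Krtdap, involucrin and the small proline-rich proteins, summed to 2662 and 2523 TPM in EY3960, 1190 and 1137 TPM in EY4028, and 987 and 1091 TPM in EY4174. The first 3 N libraries summed to 792, 784 and 840 TPM and N replicate 4 to 1463 TPM. Sbsn, Dmkn and Sprr1b made up most of the sum, and not every member moved with Klk10. Krt13 was 44.8 to 50.7 TPM in the first 3 N libraries and 3.55 to 10.4 TPM in EY4028 and EY4174. Lgals7 was lowest in EY3960 (1.17 and 1.99 TPM) and highest in EY4174 (44.8 and 58.5 TPM). Of 16 tested members none was called between EY and N. In EY3960, 6 were called higher and 1 lower, beside 3.96% and 3.08% of all genes. In EY4028, 1 was called higher and 1 lower, beside 3.56% and 2.18% of all genes. In EY4174, 1 was called higher and 2 lower, beside 2.01% and 2.94% of all genes. Between the EY lines 7 differed, beside 5.12% of all genes. The part of differentiation in the Klk10 differences was not tested. Slpi too was highest in EY3960 and, among the N libraries, in N replicate 4 (31.2 TPM against 18.0 to 26.2 TPM), and the part of differentiation in its differences was not tested either.

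**Figure D4:**
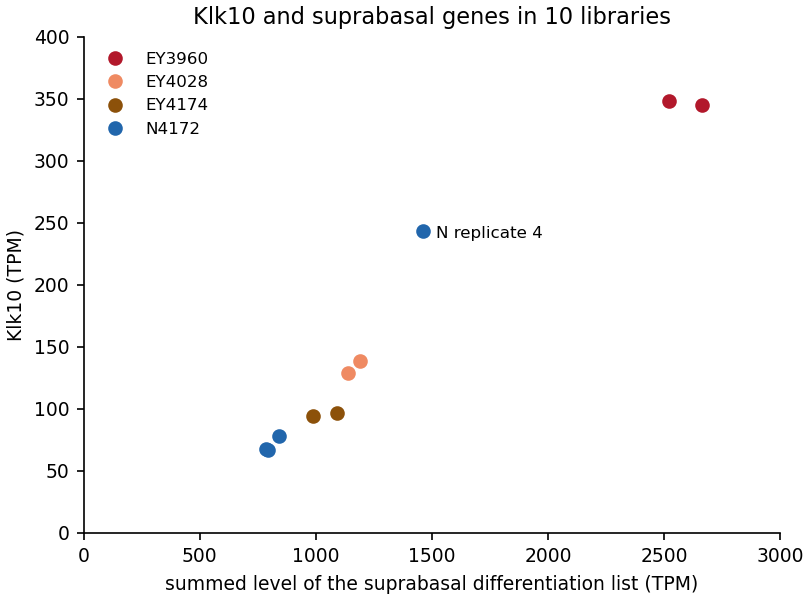
Klk10 level (vertical axis, TPM) against the summed level of the suprabasal differentiation list (horizontal axis, TPM) in each of the 10 libraries, coloured by line. The EY3960 libraries are at the upper right and N replicate 4 lies apart from the other 3 N libraries, at 243 TPM of Klk10 and 1463 TPM of the list.

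Of 13 kallikrein symbols listed, 8 were in the table, and Klk6, Klk8 and Klk9 passed the filter beside Klk10; none was called between EY and N. Klk8, a protease of the upper epithelial layers, had 123 TPM in EY3960, 25.0 TPM in EY4028, 48.7 TPM in EY4174 and 137 ± 51.9 TPM (SD, n = 4) in N. It was called lower in EY4028 (-2.35, adjusted p = 2.04e-04) and EY4174 (-1.41, adjusted p = 0.00389, both limma), where 2.18% and 2.94% of genes were called lower. Klk8 was highest in N replicate 4 (214 TPM) among the N libraries and in EY3960 among the EY lines, as Klk10 was. Klk6 reached 1 TPM in the N libraries alone (1.08 to 1.87 TPM) and thus passed the filter through them, with 0.247 to 0.759 TPM in EY, so no test of it is given. Klk9, at 1.53 TPM in EY and 0.827 TPM in N, also had its highest EY values in EY3960 (3.01 and 2.82 TPM) and its highest N value in N replicate 4 (1.91 TPM). It was called higher in EY3960 (1.17, adjusted p = 0.00939, limma), where 3.96% of genes were called higher. Only these libraries and EY replicate 6 (1.10 TPM) reached 1 TPM. Klk9 thus passed the filter partly through EY3960, and a difference was in part built into its passing.

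Epithelial kallikreins act in a cascade with matriptase and prostasin. They are held mainly by LEKTI, the product of Spink5, while Kunitz-type inhibitors restrain matriptase and prostasin. Of 6 tested genes of this cascade none was called between EY and N with all libraries, and Prss8, which encodes prostasin, was called higher without N replicate 4, when 2.01% of genes were called higher and 1.31% lower. St14, which encodes matriptase, differed by 0.61 (adjusted p = 0.00119), and Spint2, a Kunitz-type inhibitor, by 0.55 (adjusted p = 0.00339, both limma), under the fold threshold. Spink5 had line means of 28.8 TPM in EY3960, 22.6 TPM in EY4028 and 10.7 TPM in EY4174 against 21.8 TPM in N (-0.16, adjusted p = 0.728, limma). F2rl1, the protease-activated receptor that kallikreins cleave, was called higher in EY3960 (1.336, adjusted p = 9.81e-05) and EY4028 (1.748, adjusted p = 1.78e-05, both limma). In these lines 3.96% and 3.56% of genes were called higher. In EY4174 the F2rl1 difference was -0.24 (adjusted p = 0.274, limma).

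Pdpn was very low in all cultures but EY4028. Its level was 3.15 and 2.84 TPM in EY4028. In EY3960 it was 0.0302 TPM in 1 library and listed at 0 in the other, and in EY4174 it was 0.0951 and 0.0608 TPM. The N libraries held 0.143, 0.152, 0.0978 and 0.0332 TPM. Only the EY4028 libraries stood out. The EY4174 libraries lay within the range of N, and the EY3960 libraries lay below it.

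Because Pdpn reached 1 TPM in 2 libraries, it did not pass the filter, and its tests come from the fit over all 18586 rows. EY and N did not differ by the test (0.56, SE 0.45, 95% confidence interval -0.42 to 1.55, adjusted p = 0.439, limma; exact two-sided permutation p = 0.452). EY4028 was above N by 1.85 (SE 0.09, adjusted p = 1.25e-06, limma) and was called, as were 2.3% of rows in that direction. EY3960 (-0.12, adjusted p = 0.410) and EY4174 (-0.04, adjusted p = 0.838, both limma) were not. The F test called Pdpn among the EY lines (adjusted p = 3.19e-06, limma; 3.29% of rows were called), and EY4028 exceeded EY3960 by 1.98 and EY4174 by 1.89. Without line EY4028 the EY difference was -0.08 (adjusted p = 0.311, limma). At levels this low the pseudocount of 1 TPM compresses the differences: with 0.1 TPM the EY4028 difference was 3.95 (adjusted p = 4.52e-05, limma), and the ratio of mean TPM to N was 28.1.

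The proteins that podoplanin binds or acts through were expressed in all libraries. None of 10 tested partners was called between EY and N or in any line. Cd9, a tetraspanin, had 677 ± 85.4 TPM over the EY libraries (SD, n = 6), against 621 ± 145 TPM over the N libraries (SD, n = 4), a difference of 0.14 (adjusted p = 0.474, limma). Cd44, the hyaluronan receptor, differed by -0.07 (adjusted p = 0.796), and Rhoa, the small GTPase downstream of podoplanin, by 0.07 (adjusted p = 0.739, both limma). The median over the partners was 0.08. Pdpn is known from lymphatic endothelium. Of 8 listed markers of endothelial and lymphatic cells, 5 were in the table. They summed to at most 0.637 TPM in any library and to 0.369 and 0.314 TPM in EY4028.

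Of the other 15 tested partial EMT genes, 1 was called higher and 2 lower in EY, beside 1.85% and 1.7% of all genes. Thbs1, which encodes the matrix glycoprotein thrombospondin 1, was higher by 1.10 (SE 0.23, adjusted p = 0.00477). Tgfbi, a TGF-beta-induced matrix protein, was lower by -1.23 (SE 0.15, adjusted p = 1.80e-04), and Tnc, which encodes tenascin C, by -1.31 (SE 0.27, adjusted p = 0.00469, all limma). Tnc passed the filter mainly through N, where it was 1.82 to 4.58 TPM, while 1 EY library reached 1 TPM, so a difference was built into its passing. Without N replicate 4, Tnc was no longer called. The median of the 15 genes was 0.10, beside 0.03 over all genes.

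Slpi, Anxa3 and Klk10 stand among the first 30 genes of the study's table for its tumor initiating cluster, a cell group that the study defined from single cells. Of the other 25 listed genes that were tested, 3 were called higher and 1 lower in EY, and 21 were not called, beside 1.85% higher and 1.7% lower over all genes. Without N replicate 4, 2 were called higher and 1 lower, beside 2.01% and 1.31% of all genes. Their median difference was 0.47. Lgals1, which encodes galectin 1, had 215 ± 53.8 TPM over the EY libraries (SD, n = 6), against 44.7 ± 1.44 TPM over the N libraries (SD, n = 4), a difference of 2.20 (adjusted p = 7.96e-06). Cryab, a small heat shock protein, was higher by 1.49 (adjusted p = 9.24e-04), and S100a8, a calcium-binding protein of granulocytes and stressed keratinocytes, by 2.52 (adjusted p = 0.00906, all limma). S100a8 was the gene whose call was lost without N replicate 4. It passed the filter mainly through EY, where it was 5.54 to 34.9 TPM, against 0.600 to 2.82 TPM in N. A difference was thus built into its passing.

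Ly6c1, a surface protein, moved the other way, with 130 ± 17.3 TPM over the EY libraries (SD, n = 6), against 809 ± 34.8 TPM over the N libraries (SD, n = 4). The difference was -2.63 (SE 0.09, adjusted p = 1.41e-08, limma), and it was below -2.4 in each EY line. The dot plot of the cluster genes shows that Slpi had the highest difference of the 28 tested and Ly6c1 the lowest.

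**Figure D5:**
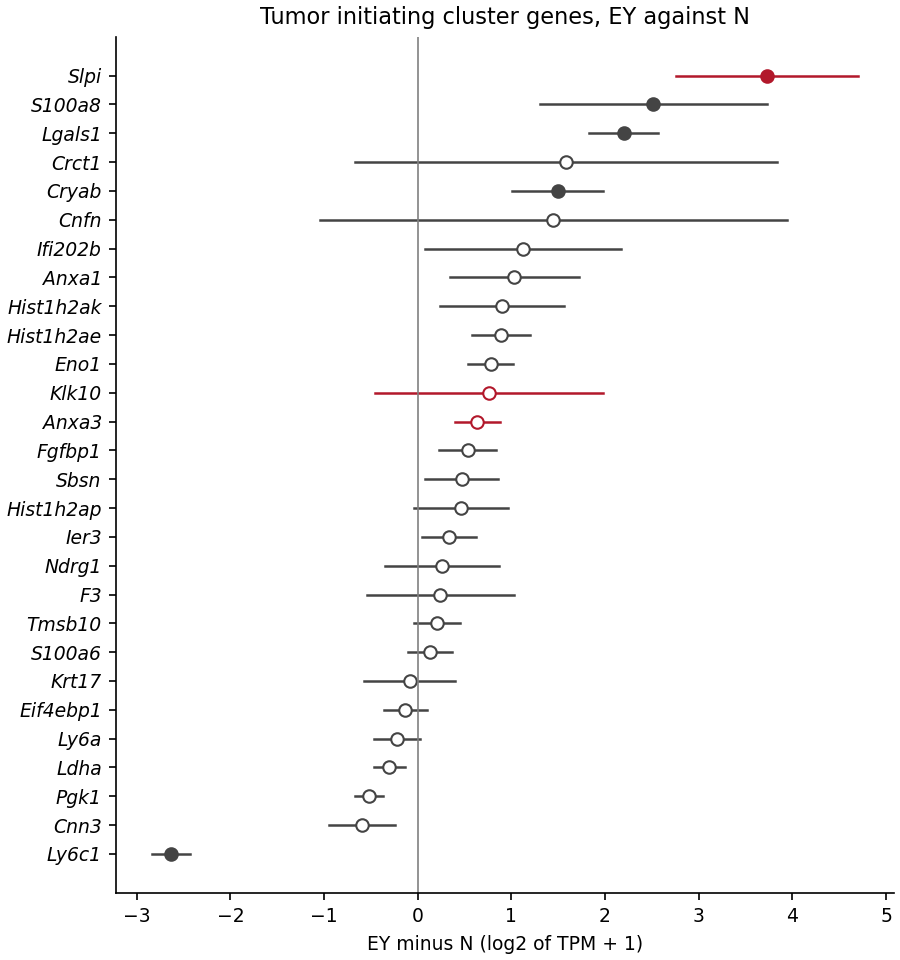
Difference between EY and N on log2(TPM + 1) (horizontal axis) with 95% confidence interval for the 28 tested genes of the tumor initiating cluster list (vertical axis). Filled circles are called genes and red marks Slpi, Klk10 and Anxa3; Slpi is at 3.73, Ly6c1 at -2.63, and 23 of the 28 circles are open.

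Genes with the pattern most like each member were found by Pearson correlation of log2(TPM + 1) over the 10 libraries, among 8094 other genes with a mean of at least 5 TPM (8095 for Pdpn). The libraries share lines, so the coefficients describe 4 lines more than 10 samples. For Slpi they were Cystm1 (0.99), Gramd3 (0.99) and Mal2 (0.99). Mal2, a protein of membrane transport in polarised epithelia, averaged 27.4 TPM in EY3960, 14.3 TPM in EY4028, 13.3 TPM in EY4174 and 0.988 TPM in N.

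For Anxa3 the closest genes were Tmem176b, Nudt2 and Tent5b. Tmem176b averaged 61.1 TPM in EY3960, 118 TPM in EY4028, 128 TPM in EY4174 and 25.6 TPM in N. For Klk10 they were Sprr2f, Sprr1a and Pold4. Sprr2f and Sprr1a encode precursors of the cornified envelope, and Sprr1a averaged 208 TPM in EY3960, 53.2 TPM in EY4028 and 29.97 TPM in EY4174, with N libraries between 15.8 and 195 TPM.

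For Pdpn the closest genes were Rps18, Gm13394 and Gm10243, all high in EY4028 alone. Gm10243 was tied with Rpl35a-ps3, Rpl35a-ps4 and Rpl35a-ps6, which had the same coefficient and the same mean levels, and it came first by name only. Rps18, a ribosomal protein gene, averaged 1490 TPM in EY4028 and between 98.3 and 119 TPM in the N libraries. Ribosomal protein genes have many near-identical copies, among which reads can be divided, so the levels of all these genes close to Pdpn are uncertain. Between the 4 genes themselves, the correlation was 0.76 for Slpi with Anxa3, 0.67 for Slpi with Klk10, 0.50 for Anxa3 with Pdpn, 0.35 for Anxa3 with Klk10, 0.24 for Slpi with Pdpn and -0.07 for Klk10 with Pdpn.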

How the data were processed

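Bulk RNA-seq of 6 EY and 4 N libraries was analysed. The deposited table holds TPM that the authors computed, 1 column per library. Columns sum to 998358 to 998951 TPM, so sequencing depth is unknown and no interval that needs counts was given. The submitters' processing notes name STAR 2.7.9, SAMtools 1.7, HTSeq 0.13.5, DESeq2 1.34.0 and GRCm39. The study's methods describe Kallisto for TPM in another step, and which step made this table is not stated. Spreadsheet dates replaced 20 symbols, and each row is above 0 in at least 6 libraries.

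TPM were tested as log2(TPM + 1) with limma 3.58.1 (R 4.3.3; trend and robust options, Benjamini-Hochberg adjustment) for 11630 genes with at least 1 TPM in 4 libraries. A fold change on this scale understates the change of low genes. Pdpn failed this filter and was taken from a fit of all rows. Models were EY against N, and line means with an F test among EY lines. The N libraries shared the estimate of the spread in the model of line means. In simulated data the calls of known changes were checked. The 4 genes and all lists were chosen with earlier results of these data known. Named genes were, per list, those called between EY and N or else the 3 with the highest mean TPM, and per gene the 3 closest by correlation. Anxa11, Cyr61, Amotl2, S100a9, Spink5, Prss8 and the granulocyte and monocyte markers were named after their values were seen. Samples with the same number in different lines did not deviate together (correlations of -0.148 to 0.0518).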

Additional observations from a re-analysis of the deposited data

Results flagged for a closer look

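The 32 genes examined were the 4 genes, Yap1 and those that the naming rule took from the family, partner, partial EMT and cluster lists. Other genes named in the text, such as Anxa11, Prss8, S100a9 and Spink5, were not examined. A single library that stood far from the rest of its group was looked for in EY and in N. In all, 17 such values were found, including 1 for a summed list. About 1 group in 20 would show one by chance if the libraries were independent. Libraries of 1 line are not, so this rate does not hold here, and EY and N cannot be compared by it. Of these, 15 were of N replicate 4, in which every one was the highest of the N libraries. They were Anxa3 (436 TPM), Klk10 (243 TPM), Anxa1 (1244 TPM), Anxa2 (1683 TPM), Anxa5 (176 TPM), Klk8 (214 TPM), Klk9 (1.91 TPM), S100a11 (5048 TPM), S100a6 (4983 TPM), S100a10 (1748 TPM), Cd9 (836 TPM), Tgfbi (19.4 TPM), Tnc (4.58 TPM), Thbs1 (6.05 TPM) and the summed suprabasal differentiation list (1463 TPM). In EY replicate 1, Wfdc3 was highest at 0.973 TPM and St14 was lowest at 24.3 TPM.

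The 3 EY lines differed by limma's F test for 8 of the 32 genes, beside 5.12% of all genes tested (3.29% of all rows, the fit used for Pdpn and Wfdc5). The largest difference between lines on the log2 scale was 1.83 for Slpi, 1.98 for Pdpn, 2.39 for Wfdc2, 1.57 for Wfdc5, 1.37 for Anxa1, 2.26 for Klk8, 1.99 for F2rl1 and 2.11 for S100a8. Wfdc5 is below 1 TPM in most libraries.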

How the results depend on the processing

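Slpi was higher in EY, and Anxa3 too, under all 24 alternatives, and Slpi was called in 22 of them. Over line means the Slpi difference was 3.73 (adjusted p = 0.417), and with a replicate block on sample number, although these numbers did not pair the samples, it was 3.99 (adjusted p = 0.0162); both lost the call. The Pdpn difference turned to -0.0801 without line EY4028. Genes called between EY and N numbered 413, and 216 where at least 1 TPM was required in every library, 633 with array weights, 2 over line means, 203 with line as a random block and 221 with the replicate block. That filter on every library gave 350 genes among the EY lines, and 455, 371 and 317 for EY3960, EY4028 and EY4174 against N. Besides the fit without N replicate 4, Klk10 was called in EY3960 with array weights (2.21, adjusted p = 4.85e-04) and with the replicate block (2.35, adjusted p = 1.81e-07, both limma). In these 2 settings it was also called among the EY lines (adjusted p = 0.00963 and 2.66e-06, F test). The Klk10 difference of EY4174 from N, -0.01, became 0.0238 with a common median, 0.36 with array weights, and 0.50 with the replicate block. It ran from -0.18 to 0.43 when 1 library was left out, and its sign changed without EY replicate 3 or N replicate 4. That of Pdpn became 0.0445 with a common median. The fewer genes and fewer samples tested bear on the filter and the line means, and for the other settings the cause was not tested. Leaving out 1 library at a time, counts between EY and N ran from 295 to 444. The depth of the libraries is unknown, so values under 1 TPM have no stated precision. With 1 N line, no alternative separates genotype from line.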
